A study of Saccharomyces cerevisiae BY4743 with 24 samples.

Results

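The antioxidant enzymes described here are 10 genes of the budding yeast Saccharomyces cerevisiae. They are the catalases CTT1 and CTA1, the superoxide dismutases SOD1 and SOD2, the peroxiredoxins TSA1, TSA2 and AHP1, the thiol peroxidase GPX2, the thioredoxin TRX2 and the thioredoxin reductase TRR1. They were chosen by name, and all 10 symbols were found among the 5959 mRNA entries of the deposited expression table. Of these 10, 9 passed a filter on low values (10 mRNA TPM or more in 3 or more libraries) that 3949 mRNAs passed in all. CTA1 reached that level in 2 libraries and was not tested. CTT1 and TSA2 passed through the 42 °C libraries, 12 of which reached it for each gene, against 0 of 12 at 30 °C for CTT1 and 1 of 12 for TSA2. These 2 genes could be tested only because they were high at 42 °C. Counts and medians over the 9 tested genes, and the p-values and percentiles of CTT1 and TSA2, are descriptions to be read with that limit.

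The study profiled polysomes of BY4743, a diploid laboratory strain, after heat shock at 42 °C and at the standard temperature of 30 °C. The heat-shocked cells were collected on a filter, moved into fresh medium at 42 °C and taken 30 min later, whereas the cells at 30 °C were sampled directly, so heat and this handling cannot be told apart. All cells grew in synthetic medium with raffinose and a trace of glucose and met cycloheximide at harvest. Lysates ran on sucrose gradients, the fractions of each gradient were joined into 4 pools, spike-in RNA was added to each pool, and libraries were made without removing ribosomal RNA. The result is 24 libraries, 3 replicates of each pool at each temperature, from 6 gradients. Library names call pools 1 to 3 mono, di and tri, which points to the number of ribosomes on an mRNA, and pool 4 carries no such word. No label states that the replicates are separate cultures, so p-values measure the spread between these samples.

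Superoxide dismutases convert superoxide to hydrogen peroxide, which catalases break down directly and which peroxiredoxins and thiol peroxidases reduce through reactive cysteines. Oxidised peroxiredoxins are recycled by thioredoxin, and thioredoxin reductase restores thioredoxin with electrons from NADPH. In budding yeast the transcription factors Yap1 and Skn7 are known to activate many of these genes under peroxide, and Msn2 and Msn4 activate general stress genes such as CTT1.

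On the R64 build each of the 10 genes is an uninterrupted reading frame. The catalase genes are CTT1 (YGR088W, chromosome VII, 654634 to 656322, 1689 nt of coding sequence) and CTA1 (YDR256C, chromosome IV, 968133 to 969680, 1548 nt). The dismutase genes are SOD1 (YJR104C, chromosome X, 622550 to 623014, 465 nt) and SOD2 (YHR008C, chromosome VIII, 122889 to 123590, 702 nt). The peroxiredoxin genes are TSA1 (YML028W, chromosome XIII, 220138 to 220728, 591 nt), TSA2 (YDR453C, chromosome IV, 1365072 to 1365662, 591 nt) and AHP1 (YLR109W, chromosome XII, 368781 to 369311, 531 nt). GPX2 (YBR244W) lies on chromosome II from 707528 to 708016 and is 489 nt long. TRX2 (YGR209C, chromosome VII, 912913 to 913227) is the shortest of the 10 at 315 nt, and TRR1 (YDR353W, chromosome IV, 1183299 to 1184258) has 960 nt.

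Levels are given as mRNA TPM, the deposited TPM (transcripts per 1000000) rescaled so that the mRNAs of each library add up to 1000000. They are shares of the mRNA in a pool, so fewer copies of an mRNA and more of the other mRNAs cannot be told apart. The mRNAs made up 0.142 to 2.75% of the deposited TPM in 42 °C libraries and 2.05 to 3.77% in 30 °C libraries, and 843 to 1415 mRNAs were listed at 0 per 42 °C library against 673 to 882 per 30 °C library. The lowest shares were those of pool 1 at 42 °C, at 0.142, 0.248 and 0.402% in replicates 1, 2 and 3. Pool 1 at 30 °C had 2.47, 2.19 and 2.39%. Heat in pool 1, pool 4 against pool 1 at 42 °C and their interaction rest on these libraries, and the part of the low mRNA share was not tested. Log2 values of replicates correlated at 0.752 to 0.900 at 42 °C and 0.867 to 0.946 at 30 °C. Of the markers deleted in BY4743, URA3 was listed at 0 in all 24 libraries, but LEU2 went against the label. LEU2 was at 22.6 to 217 mRNA TPM in the 8 libraries of replicate 1 and 4.15 to 25.8 in those of replicate 2, at both temperatures, and at 0 in the 8 of replicate 3. Its part in the results was not tested, and counts without each replicate are given beside the results that they change.

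Most of the antioxidant enzyme mRNAs took a larger share of the mRNA after heat. Averaged over the 4 pools, 7 of the 9 tested genes were higher at 42 °C (TSA2, CTT1, AHP1, SOD2, TRX2, SOD1 and TSA1), 1 was lower (GPX2) and 1 did not pass the 5% threshold (TRR1). Among all tested genes 31.2% were called higher and 32.4% lower. Of the 7 genes that reached the filter's level in 3 or more libraries of each temperature, 5 were higher and 1 lower. The median log2 difference was 1.72 over the 9 genes and −0.02 over all 3949. All 10 mRNAs together held 0.414 ± 0.0212% of the mRNA at 42 °C and 0.164 ± 0.0212% at 30 °C (mean ± SD of gradient means, n = 3 each). Most of this was SOD1 and SOD2, with 0.286% and 0.105%. In gradient means the 4 pools count equally, whatever amount of mRNA each pool held. Gradients of both temperatures carry the same replicate numbers. Deviations of gradient means with the same number correlated weakly, at r of 0.142 to 0.191, against at most −0.007 for different numbers. With the number as a block the count was 7 higher and 0 lower, because GPX2 did not pass. It was also 7 higher and 0 lower without replicate 1, 2 or 3 at both temperatures.

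**Figure D1:**
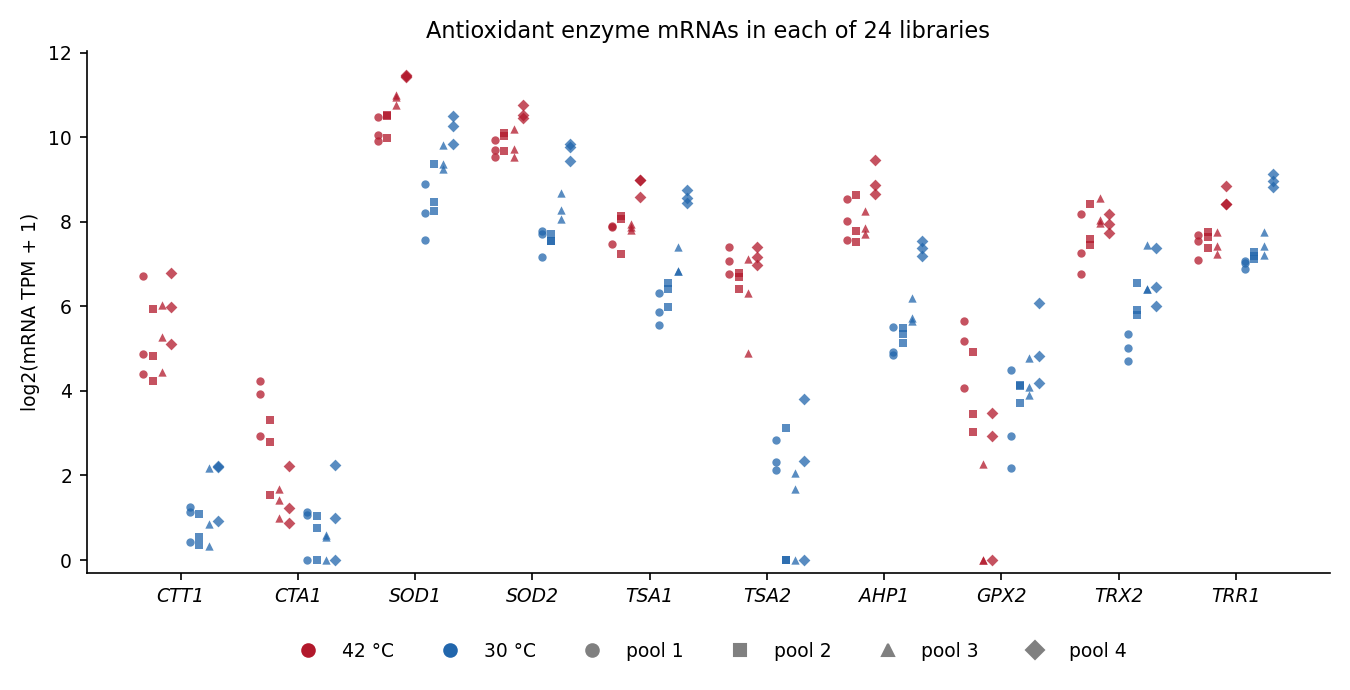
Level of each antioxidant enzyme mRNA in each of the 24 libraries, as log2(mRNA TPM + 1), with 42 °C libraries left of 30 °C libraries and symbols for the 4 pools. The 12 libraries at 42 °C lie above the 12 at 30 °C for CTT1 and TSA2, both groups overlap for TRR1, and GPX2 is at 0 in 3 libraries, all at 42 °C.

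The cytosolic catalase CTT1 was among the genes with the largest change. At 42 °C the CTT1 level in replicates 1, 2 and 3 was 104, 28.4 and 19.9 mRNA TPM for pool 1, 60.7, 27.5 and 17.7 for pool 2, 64.4, 37.5 and 20.9 for pool 3 and 109.8, 61.9 and 33.4 for pool 4. At 30 °C the CTT1 level was 1.38, 0.348 and 1.18 mRNA TPM for pool 1, 0.281, 0.452 and 1.13 for pool 2, 0.819, 3.49 and 0.264 for pool 3 and 3.67, 3.59 and 0.911 for pool 4. No 30 °C library reached the lowest 42 °C library, and replicate 1 was the highest and replicate 3 the lowest of the 42 °C libraries in every pool. LEU2 had the same order over replicates there. The gradient means of CTT1 averaged 48.9 ± 32.1 mRNA TPM at 42 °C and 1.46 ± 0.553 at 30 °C (SD, n = 3 each), a ratio of 33.5. The log2 difference over the 4 pools was 4.26 ± 0.45 (SE, adjusted p = 0.00017), larger than that of 97.6% of tested genes. CTT1 was among the tested genes only through its 42 °C level. The difference was 5.19 with a pseudocount of 0.1 and 2.87 with one of 5. The 30 °C levels are close to the lowest values of the table for mRNAs of 1500 to 2000 nt, whose 2% quantile above 0 was 0.418 mRNA TPM (median library).

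CTA1, the catalase of peroxisomes and mitochondria, was a rare mRNA in both conditions. At 42 °C the CTA1 level in replicates 1, 2 and 3 was 6.61, 14.2 and 17.8 mRNA TPM for pool 1, 5.92, 8.87 and 1.91 for pool 2, 2.20, 1.66 and 0.986 for pool 3 and 0.845, 1.35 and 3.70 for pool 4. At 30 °C it was listed at 0 in 4 of 12 libraries and had at most 3.78 mRNA TPM. The 42 °C libraries lay above the 30 °C libraries in pools 1 to 3 and overlapped them in pool 4. At 42 °C CTA1 was lower in pool 4 than in pool 1 in every library, at 1.97 ± 1.52 against 12.9 ± 5.70 mRNA TPM. CTT1 made up 86.8 ± 8.33% of the mRNA TPM of both catalases at 42 °C and 67.4 ± 12.6% at 30 °C (SD, n = 3 gradients each). The gradients overlapped, at 79.1 to 95.6% at 42 °C and 54.7 to 79.9% at 30 °C. Both catalases were close to the lowest values of the table at 30 °C.

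The copper-zinc superoxide dismutase SOD1, found mainly in the cytosol, gave the most abundant mRNA of the 10 at each temperature. The SOD1 level at 42 °C in replicates 1, 2 and 3 was 1425, 1067 and 964 mRNA TPM for pool 1, 1481, 1451 and 1007 for pool 2, 1729, 1964 and 2032 for pool 3 and 2792, 2739 and 2838 for pool 4. The SOD1 level at 30 °C was 478, 296 and 188 mRNA TPM for pool 1, 659.6, 356 and 306 for pool 2, 904, 662 and 602 for pool 3 and 1437, 1234 and 919 for pool 4. Within each pool every 42 °C library was above every 30 °C library, and at 30 °C replicate 1 was the highest in every pool. Gradient means of SOD1 averaged 1791 ± 74.4 mRNA TPM at 42 °C and 670.1 ± 185 at 30 °C, a ratio of 2.67, with a log2 difference of 1.56 ± 0.28 (adjusted p = 0.00209).

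SOD2, the manganese dismutase of the mitochondrial matrix, rose by a similar amount. Its mean was 846 ± 117 mRNA TPM for pool 1 at 42 °C against 191 ± 41.6 at 30 °C, 985 ± 144 against 193 ± 13 for pool 2, 917 ± 229 against 329 ± 74.1 for pool 3 and 1542 ± 182 against 826 ± 120.2 for pool 4 (SD, n = 3 each). The 12 values at 42 °C ran from 736 to 1746 and the 12 at 30 °C from 143 to 917, with no overlap within a pool. Over the gradient means SOD2 was at 1073 ± 118 at 42 °C and 385 ± 50.4 at 30 °C, a ratio of 2.79 and a log2 difference of 1.72 ± 0.21 (adjusted p = 0.000344). SOD1 held 62.6 ± 1.86% of the summed mRNA TPM of both dismutases at 42 °C and 62.7 ± 8.98% at 30 °C, so the share did not move beyond its spread between gradients. CCS1, the copper chaperone that loads Sod1, had 96.6 ± 38.8 mRNA TPM at 42 °C and 117 ± 8.0 at 30 °C and did not pass the test (log2 difference −0.21 ± 0.29, adjusted p = 0.554).

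The cytosolic peroxiredoxins TSA1 and TSA2 code for close paralogs, and their levels changed to different extents. At 42 °C the TSA1 level in replicates 1, 2 and 3 was 232, 238 and 177 mRNA TPM for pool 1, 150.4, 266 and 282 for pool 2, 245, 224 and 234 for pool 3 and 504, 386 and 510.1 for pool 4. At 30 °C the TSA1 level was 78.6, 57.2 and 46.4 mRNA TPM for pool 1, 83.5, 92.2 and 61.8 for pool 2, 168, 113 and 113 for pool 3 and 431, 378 and 348 for pool 4. Within each of pools 1 to 3, TSA1 was higher in every 42 °C library than in any 30 °C library of the same pool, while the groups overlapped in pool 4. Its gradient means were 287 ± 11.7 mRNA TPM at 42 °C and 164 ± 24.2 at 30 °C, a ratio of 1.75 and a log2 difference of 1.12 ± 0.22 (adjusted p = 0.00309). This was the smallest rise of the 7, and on 2 of the other scales described further on it was slightly below 0 (−0.06 on the deposited scale with a scaled pseudocount and −0.11 on the spike-in scale).

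TSA2 was scarce at 30 °C and reached the order of magnitude of TSA1 at 42 °C. At 42 °C the TSA2 level in replicates 1, 2 and 3 was 169, 134 and 108 mRNA TPM for pool 1, 84.6, 102 and 109 for pool 2, 138, 78.8 and 28.9 for pool 3 and 169, 126 and 144 for pool 4. At 30 °C the TSA2 level was 3.99, 6.13 and 3.37 mRNA TPM for pool 1, 0, 7.65 and 0 for pool 2, 3.14, 0 and 2.21 for pool 3 and 0, 4.06 and 12.9 for pool 4. The lowest 42 °C library, replicate 3 of pool 3, was still above the highest 30 °C library. Gradient means averaged 116 ± 21.9 mRNA TPM at 42 °C and 3.62 ± 1.60 at 30 °C, a ratio of 32. The log2 difference of 5.07 ± 0.32 (adjusted p = 2.35e-05) was the largest of the 9 and above that of 98.8% of tested genes. TSA2 was among the tested genes only through its 42 °C level. The difference was 6.34 with a pseudocount of 0.1 and 3.82 with one of 5. The 2% quantile of values above 0 for mRNAs of 400 to 600 nt was 1.9 mRNA TPM. TSA2 made up 28.6 ± 4.32% of TSA1 plus TSA2 at 42 °C and 2.26 ± 1.18% at 30 °C. Reads that both paralogs share were divided between them by the authors' quantification, so the split is less certain than the sum.

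AHP1, a peroxiredoxin known for reducing alkyl hydroperoxides, rose in every pool. Its mean was 273 ± 91 mRNA TPM for pool 1 at 42 °C against 34 ± 9.35 at 30 °C, 265 ± 112 against 39.2 ± 4.76 for pool 2, 247 ± 49.1 against 57.9 ± 12.8 for pool 3 and 527 ± 161 against 165 ± 19.7 for pool 4. Replicate 3 was the highest of the 42 °C libraries in each pool, as in pool 4 with 467, 404 and 709 mRNA TPM in replicates 1, 2 and 3, and no pool had overlapping temperatures. Over gradient means AHP1 was at 328 ± 100.4 at 42 °C and 74 ± 11.2 at 30 °C, a ratio of 4.43, with a log2 difference of 2.33 ± 0.28 (adjusted p = 0.000293). The 3 peroxiredoxins together held 0.0731 ± 0.00970% of the mRNA at 42 °C and 0.0242 ± 0.00339% at 30 °C.

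GPX2, a thiol peroxidase of the glutathione peroxidase family, was the only tested gene of the 10 that was lower after heat, and the change lay in the later pools. The GPX2 level at 42 °C in replicates 1, 2 and 3 was 35.5, 15.7 and 48.9 mRNA TPM for pool 1, 9.92, 29.3 and 7.18 for pool 2, 0, 0 and 3.81 for pool 3 and 0, 10.2 and 6.60 for pool 4. The GPX2 level at 30 °C was 21.4, 6.66 and 3.55 mRNA TPM for pool 1, 16.6, 12.1 and 16.3 for pool 2, 26.5, 16.1 and 14 for pool 3 and 66.8, 17.1 and 27.3 for pool 4. Every 42 °C library of pools 3 and 4 lay below every 30 °C library of the same pool, and the temperatures overlapped in pools 1 and 2. The log2 difference was −3.51 ± 0.84 in pool 3 (adjusted p = 0.00184) and −2.89 ± 0.84 in pool 4 (adjusted p = 0.00625), against 1.76 ± 0.84 in pool 1 (adjusted p = 0.0795) and −0.19 ± 0.84 in pool 2 (adjusted p = 0.873). The pool 3 call held in all 22 alternatives run (adjusted p 0.000248 to 0.0338). The pool 4 call was lost in 6 of 22 alternatives, among them the fit of pool 4 alone. The pool 4 value was −1.82 (adjusted p = 0.0689) without replicate 1 at 42 °C and −1.94 (adjusted p = 0.0843) with each library scaled to its median gene. Leaving out replicate 2 at 42 °C or replicate 1 at 30 °C put the pool 1 rise past the threshold, at 2.21 (adjusted p = 0.0371) and 2.40 (adjusted p = 0.0431).

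The fall of GPX2 over all 4 pools was not firm. Its gradient means were 11.4, 13.8 and 16.6 mRNA TPM at 42 °C and 32.8, 13 and 15.3 at 30 °C, which overlap, and their ratio was 0.684. On the log2 scale the difference was −1.21 ± 0.44 (adjusted p = 0.0463), further from 0 than the ratio because averaging logs gives the low values of pools 3 and 4 more weight. With the replicate number as a block the adjusted p was 0.0763. The call was also lost in each fit that left out a replicate except the one without replicate 3 at 42 °C, and the value moved to −0.83 (adjusted p = 0.123) without replicate 1 at 42 °C, −0.83 (adjusted p = 0.142) without replicate 1 at 30 °C and −0.45 (adjusted p = 0.213) without both.

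TRX2, the cytosolic thioredoxin that is better known for its induction by peroxide, rose in all 4 pools. At 42 °C it averaged 184 ± 96 mRNA TPM for pool 1 against 32 ± 7.16 at 30 °C, 235 ± 91.3 against 68.7 ± 20.6 for pool 2, 298 ± 71 against 114 ± 52 for pool 3 and 248 ± 39.4 against 106 ± 53 for pool 4. No pool had overlapping temperatures, although replicate 1 at 42 °C stood at 292 mRNA TPM in pool 1 against 108 in replicate 2. The gradient means gave 241 ± 53.1 at 42 °C and 80.1 ± 32.7 at 30 °C, a ratio of 3.01 and a log2 difference of 1.72 ± 0.31 (adjusted p = 0.00238). TRX1, the other cytosolic thioredoxin and a close paralog, had 151 ± 65.3 mRNA TPM at 42 °C and 301 ± 29.1 at 30 °C, a log2 difference of −1.45 ± 0.65 that did not pass the test (adjusted p = 0.0867). TRX2 was 62.8 ± 7.55% of TRX1 plus TRX2 at 42 °C and 20.5 ± 5.09% at 30 °C, with the same reserve about shared reads as for TSA1 and TSA2.

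TRR1, the cytosolic thioredoxin reductase, did not pass the test in any pool. The TRR1 level at 42 °C in replicates 1, 2 and 3 was 135, 204 and 186 mRNA TPM for pool 1, 216, 167 and 197 for pool 2, 149.7, 172 and 217 for pool 3 and 343, 343 and 457 for pool 4. The TRR1 level at 30 °C was 129.9, 133 and 118 mRNA TPM for pool 1, 144, 155 and 139 for pool 2, 216, 172 and 148 for pool 3 and 453, 496 and 562 for pool 4. In pools 1 and 2 every 42 °C library was above every 30 °C library, by a small margin, and the groups overlapped in pools 3 and 4. The gradient means were 232 ± 28 at 42 °C and 239 ± 2.98 at 30 °C, a ratio of 0.973 and a log2 difference of 0.11 ± 0.20 (adjusted p = 0.65). By pool the log2 difference ran 0.44, 0.40, 0.01 and −0.41 over pools 1 to 4 (SE 0.22 each), and without replicate 1 at 42 °C the pool 1 value passed the threshold, at 0.62 (adjusted p = 0.0368). Scaled to its median gene, pool 4 was higher at 42 °C, at 0.69 (adjusted p = 0.0189), the opposite sign. TRR2, the mitochondrial reductase, had 38.1 ± 15.5 mRNA TPM at 42 °C and 18.5 ± 8.31 at 30 °C and did not pass over the 4 pools (adjusted p = 0.105). It was called higher in pool 1 (2.38 ± 0.72, adjusted p = 0.0083) and pool 2 (1.82 ± 0.72, adjusted p = 0.0399), and was at −0.02 in pool 3 and 0.14 in pool 4.

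The order of the levels changed with temperature. TPM is per length of transcript, so mRNAs of different length can be ranked. At 42 °C the gradient means ran, from the highest, SOD1, SOD2, AHP1, TSA1, TRX2, TRR1, TSA2, CTT1, GPX2 and CTA1. Neighbours from AHP1 to TRR1 overlapped, and each of the other neighbours was separated in all gradients. At 30 °C the order was SOD1, SOD2, TRR1, TSA1, TRX2, AHP1, GPX2, TSA2, CTT1 and CTA1, with overlaps between TRX2 and AHP1 and between neighbours from TSA2 to CTA1. TRR1 therefore stood above all 3 peroxiredoxins and TRX2 at 30 °C, and TSA2 and CTT1 stood below GPX2 there but above it at 42 °C.

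The size of the change depended on the pool, as it did for mRNAs in general. The median log2 difference of the 9 tested genes was 2.16, 1.73, 1.44 and 1.24 from pool 1 to pool 4, while the median of all 3949 genes was 0.65, 0.42, −0.24 and −0.94. In pool 1, 7 of the 9 were higher and 0 lower, with 39.7% of all tested genes higher and 17.1% lower. Scaled to 25S rRNA, which put the median gene of pool 1 at −1.23, that count was 2 higher and 1 lower. On the deposited scale it was 0 higher and 4 lower, and 1 higher and 4 lower with a scaled pseudocount. Of all 3949 tested genes, 317 were higher and 2040 lower in pool 1 on the 25S rRNA scale. On the deposited scale 68 of them were higher and 2103 lower, and with a scaled pseudocount 131 and 2735. Pool 2 also had 7 higher and 0 lower on the mRNA scale, with 33.2% and 18.8% of all tested genes. In pool 3, 7 were higher and 1 lower, against 20.9% and 28.1% of all tested genes, and in pool 4, 6 were higher and 1 lower, against 13.8% and 43.8%. Leaving out replicate 2 at 30 °C brought the pool 3 count to 5 higher and 1 lower, and leaving out replicate 2 at both temperatures brought pools 3 and 4 each to 4 higher and 1 lower. TRX2 lost its pool 3 call without replicate 2 at 30 °C, at 1.27 (adjusted p = 0.0535), and its pool 4 call without replicate 3 at 30 °C, at 1.02 (adjusted p = 0.0868). TSA1 was the gene that was called in pool 3 (log2 difference 0.86 ± 0.27, adjusted p = 0.0136) and not in pool 4 (0.27 ± 0.27, adjusted p = 0.412). Its pool 3 call was lost without replicate 2 at 30 °C, at 0.76 (adjusted p = 0.0831), and without replicate 3 at 30 °C, at 0.76 (adjusted p = 0.0584).

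On the fitted scale, log2(mRNA TPM + 1), each rise was also set against the median gene of the same pool. The rises of TSA1, AHP1, SOD2 and TRX2 then varied less from pool to pool, and those of CTT1, TSA2 and SOD1 varied more. The range over the 4 pools was 0.12 for TSA1 in place of 1.56, 0.34 for AHP1 in place of 1.32, 0.41 for SOD2 in place of 1.44 and 0.95 for TRX2 in place of 1.06. For CTT1 it was 1.37 in place of 0.26, for TSA2 2.07 in place of 0.93 and for SOD1 0.97 in place of 0.69. The values of CTT1 and TSA2 depend on the pseudocount of 1, which is not small against their 30 °C levels. Without a pseudocount, the ratio of mean levels in pools 1 to 4 was 52.5, 56.9, 26.9 and 25.1 for CTT1. For TSA2 that ratio was 30.5, 38.7, 46.1 and 25.8. TSA1 lay 1.18, 1.09, 1.09 and 1.21 above the median gene in pools 1 to 4 on the log2 scale, and AHP1 lay 2.29, 2.23, 2.32 and 2.57 above it. SOD2 was at 1.51, 1.92, 1.71 and 1.84. The distance was widest in pool 4 for SOD1 (1.27, 1.21, 1.66 and 2.18), TRX2 (1.74, 1.31, 1.68 and 2.26), CTT1 (3.74, 3.92, 4.37 and 5.11) and TSA2 (4.01, 5.17, 5.11 and 6.08). For CTT1 and TSA2 the pseudocount bears on this distance as well. TRR1 crossed the median gene, at −0.21, −0.02, 0.25 and 0.53. GPX2 went the other way, at 1.11, −0.61, −3.27 and −1.95.

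**Figure D2:**
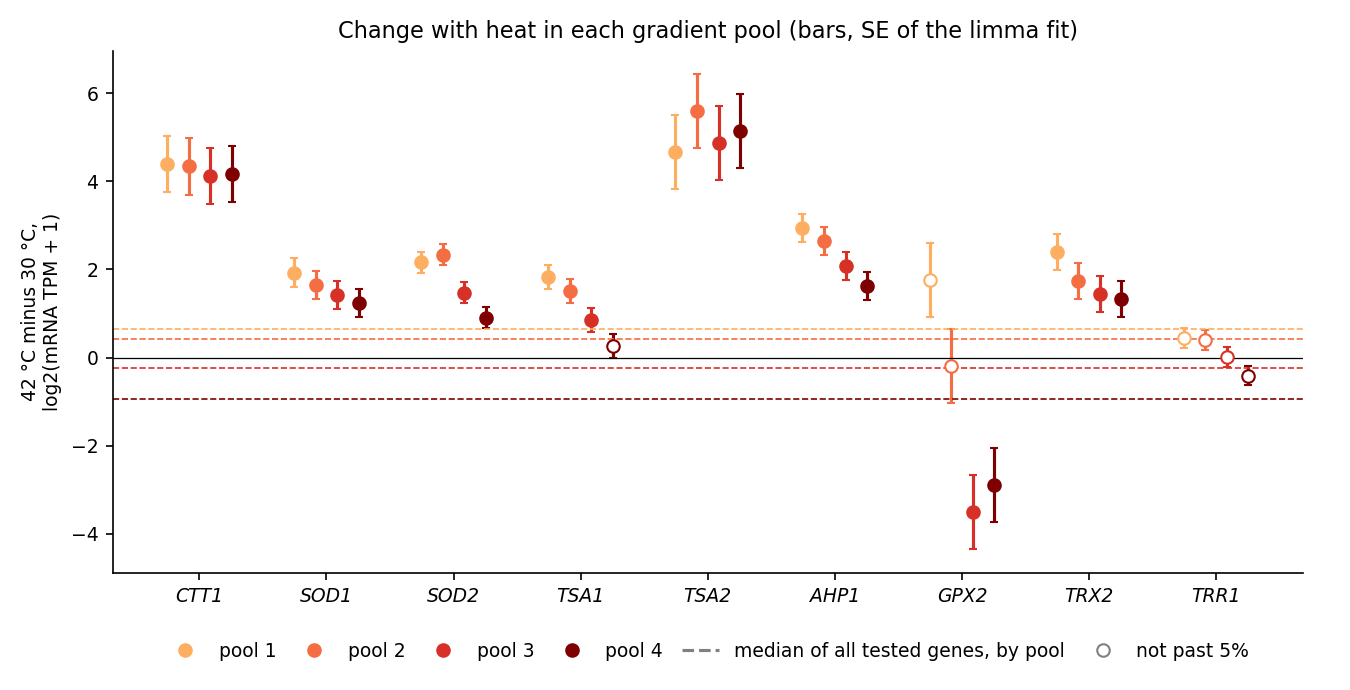
Log2 difference between 42 °C and 30 °C in each of the 4 gradient pools for the 9 tested antioxidant enzymes (points with SE, 3 libraries per temperature and pool). Dashed lines mark the median of all 3949 tested genes in each pool, from 0.65 in pool 1 to −0.94 in pool 4, and open points did not pass 5%. Scaled to 25S rRNA the pool 1 points of SOD1, SOD2, TSA1 and TRR1 fall below 0.

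Across the gradient, the antioxidant enzyme mRNAs held a larger share of pool 4 than of pool 1 at both temperatures. Together they held 0.308 ± 0.0310, 0.338 ± 0.0326, 0.391 ± 0.0116 and 0.618 ± 0.0430% of the mRNA in pools 1 to 4 at 42 °C, and 0.0782 ± 0.0151, 0.0985 ± 0.0233, 0.156 ± 0.0257 and 0.323 ± 0.0218% at 30 °C. At 42 °C, 4 of the 9 were higher in pool 4 than in pool 1 (SOD1, SOD2, TSA1 and TRR1), where 1.7% of all tested genes were, and GPX2 was lower, as were 11.4% of all. The median log2 difference of pool 4 minus pool 1 there was 0.87 for the 9 and −0.36 for all tested genes. SOD1 had 2789 ± 49.6 mRNA TPM in pool 4 and 1152 ± 242 in pool 1, a log2 difference of 1.29 ± 0.32 (adjusted p = 0.014). For TRR1 the values were 381 ± 65.4 and 175 ± 35.8 (1.13 ± 0.22, adjusted p = 0.00286), for TSA1 467 ± 70.2 and 216 ± 33.8 (1.11 ± 0.27, adjusted p = 0.012) and for SOD2 1542 ± 182 and 846 ± 117 (0.87 ± 0.24, adjusted p = 0.0224). AHP1 came close to the threshold (0.96 ± 0.32, adjusted p = 0.0511) and passed it with the gradient as a block (adjusted p = 0.0025). With that block 147 genes in all were called higher in place of 67, and 648 lower in place of 451. In every library of pool 4 these 5 mRNAs were above every library of pool 1, but the number of calls among the 9 varied. It was 3, 3 and 1 without replicate 1, 2 or 3 at 42 °C and 3, 1 and 0 without replicate 1, 2 or 3 at both temperatures, and SOD2 lost its call in each of these 6 fits. The fall of GPX2 (−2.83 ± 0.84, adjusted p = 0.0317) did not pass in 16 of 22 alternatives. It was −1.65 (adjusted p = 0.244) without replicate 1 at 42 °C, −2.29 (adjusted p = 0.0988) with median scaling and −1.05 (adjusted p = 0.276) on the 25S rRNA scale. On TPM as deposited, where a pseudocount of 1 is large against its level, it was 0.04 (adjusted p = 0.89). Without replicate 3 at both temperatures, with 0 called, 6 of the 9 still had an unadjusted p under 0.05.

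At 30 °C, 6 of the 9 were higher in pool 4 than in pool 1 (TSA1, AHP1, SOD2, SOD1, TRR1 and TRX2) and 0 lower, with 47.1% of all tested genes higher and 1.34% lower. TSA1 had the widest difference, with 386 ± 42.1 mRNA TPM in pool 4 and 60.8 ± 16.4 in pool 1 (2.67 ± 0.27, adjusted p = 1.07e-06). It stood 1.50 above the median gene, whose own difference was 1.18. AHP1 stood 1.09 above that gene, SOD2 0.94, SOD1 and TRR1 0.80 each and TRX2 0.42. With median scaling SOD1 and TRX2 did not pass, at 0.80 (adjusted p = 0.268) and 0.44 (adjusted p = 0.707), and TRX2 also lost its call without replicate 2 at 30 °C, at 1.52 (adjusted p = 0.0508). CTT1 and TSA2, at their low 30 °C levels, had differences of 0.85 ± 0.64 and −0.38 ± 0.84 that did not pass. Short coding sequence did not go with the later pools over all genes: Spearman's rho between coding length and the pool 4 minus pool 1 difference was 0.06 at 42 °C and 0.25 at 30 °C across 3949 genes, and the median difference of the 810 genes of at most 600 nt was −0.67 at 42 °C and 0.44 at 30 °C.

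The difference of pool 4 minus pool 1 was lower at 42 °C than at 30 °C for 5 of the 9 genes and higher for 0, with 48.2% of all tested genes called lower and 0.304% higher. The 9 had a median change of −1.06 and all tested genes one of −1.56, so the count among the 9 is close to the share over all genes. GPX2 was at −4.65 ± 1.18 (adjusted p = 0.00551), which is −3.10 from the median gene and lower than in all but 0.9% of tested genes. TSA1 was at −1.56 ± 0.38 (adjusted p = 0.00456), −0.01 from the median gene. AHP1 (−1.31 ± 0.45, adjusted p = 0.0238), SOD2 (−1.25 ± 0.34, adjusted p = 0.0074) and TRR1 (−0.85 ± 0.31, adjusted p = 0.0329) lay 0.24, 0.30 and 0.71 above it. With median scaling or quantile normalization 0 of the 9 were called (3 and 2 at an unadjusted p under 0.05), and AHP1, SOD2, TSA1 and TRR1 had the opposite sign. On the deposited scale 8 of the 9 were called higher, as were 711 of all 3949, around a median gene of 0.08 in place of −1.56. A pseudocount of 1 is large against the deposited TPM of most mRNAs and draws differences towards 0. With a scaled pseudocount 8 were also called higher, as were 872 of all 3949, around a median gene of 1.17. AHP1 and TRR1 lost their calls, and the count was 3, without replicate 2 at 42 °C, replicate 2 at 30 °C or replicate 3 at 30 °C, and it was 1 without replicate 2 or replicate 3 at both temperatures.

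**Figure D3:**
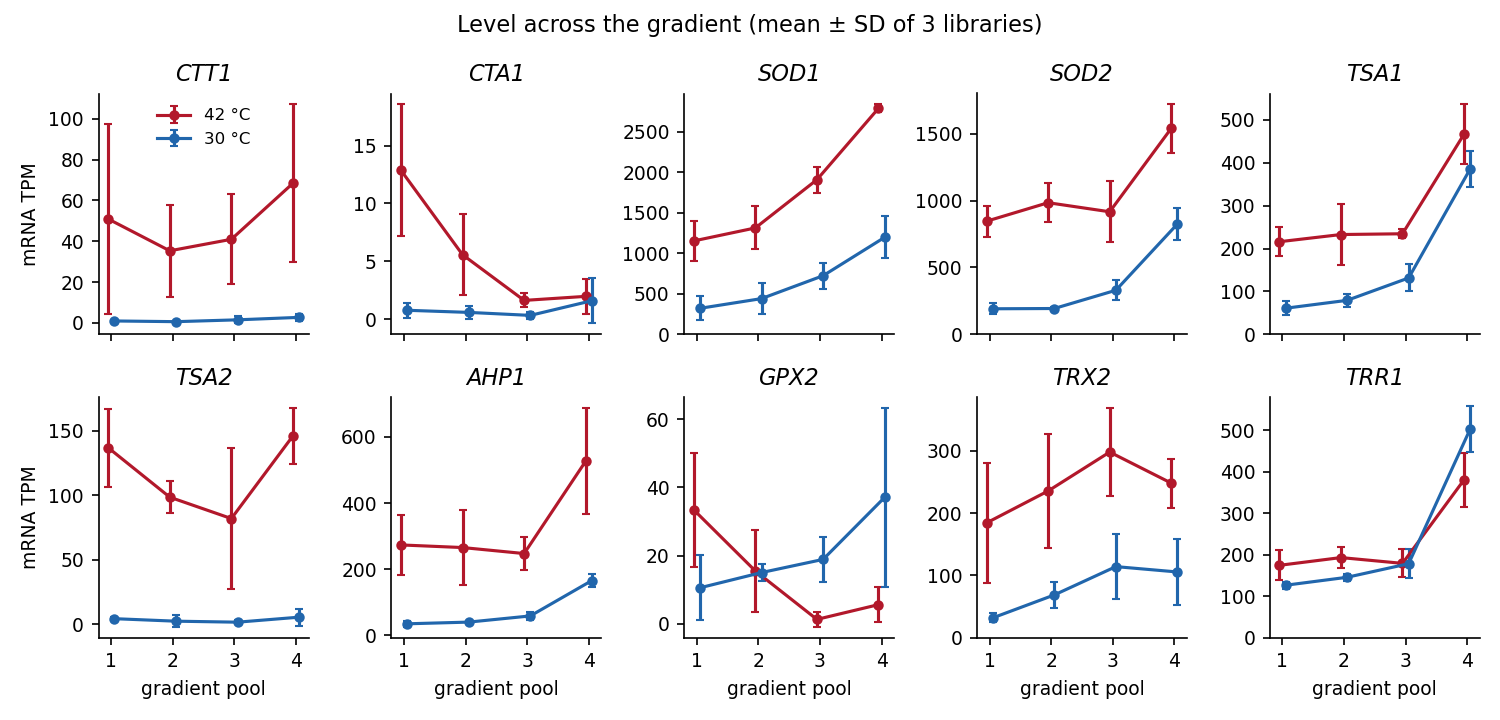
Level of each antioxidant enzyme mRNA across gradient pools 1 to 4 in mRNA TPM, at 42 °C and at 30 °C (mean ± SD of 3 libraries, separate vertical scales). SOD1, SOD2, TSA1, AHP1 and TRR1 are highest in pool 4 at both temperatures, while GPX2 and CTA1 are highest in pool 1 at 42 °C.

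Other genes of redox defence did not move as a block. Of 56 such genes in 5 lists, 49 passed the filter, and 22 were higher at 42 °C, 9 lower and 18 not past the threshold over the 4 pools, against 31.2% and 32.4% of all tested genes. On the deposited scale 15 were higher and 21 lower (12 and 22 with a scaled pseudocount), and on the 25S rRNA scale 13 and 21. Of all 3949 tested genes, 659 were higher and 2149 lower on the deposited scale (541 and 2185 with a scaled pseudocount). On the 25S rRNA scale 594 of them were higher and 2108 lower. The median log2 difference of the 49 on the mRNA scale was 0.84. Of the 49, 5 reached the filter's level in 3 or more libraries only at 42 °C (GPX1, SRX1, GTT2, GTO3 and GND2) and 3 only at 30 °C (YHB1, MTM1 and MXR2), and of the other 41, 18 were higher and 7 lower. Among the 10 further genes of thiol peroxidases and the thioredoxin system 4 rose and 1 fell. SRX1, the sulfiredoxin that repairs overoxidised peroxiredoxins, had 79.4 ± 14.3 mRNA TPM at 42 °C and 5.23 ± 5.57 at 30 °C (log2 difference 4.31 ± 0.62, adjusted p = 0.000722). GPX1, a paralog of GPX2, had 32.8 ± 4.65 at 42 °C and 0.870 ± 0.659 at 30 °C (4.20 ± 0.33, adjusted p = 4.85e-05), a rise over the 4 pools where GPX2 had none. PRX1, the mitochondrial peroxiredoxin, had 183 ± 34.6 at 42 °C and 48.7 ± 5.27 at 30 °C (1.99 ± 0.23, adjusted p = 0.000243).

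In the glutathione system 6 of 16 tested genes rose and 3 fell, with 31.2% of all tested genes higher and 32.4% lower. The glutaredoxin GRX1 had 3215 ± 448 mRNA TPM at 42 °C, more than any of the 10 antioxidant enzymes, and 530.4 ± 63.1 at 30 °C (2.74 ± 0.22, adjusted p = 5.58e-05). The glutathione transferase GTT2 had 21.1 ± 7.25 and 4.33 ± 3.75 (2.47 ± 0.65, adjusted p = 0.0121). The monothiol glutaredoxin GRX4 fell to 18 ± 1.74 at 42 °C, against 51.4 ± 9.31 at 30 °C (−1.64 ± 0.23, adjusted p = 0.000609), and the glutathione synthetase GSH2 to 10.4 ± 3.40 against 26.6 ± 1.58 (−1.19 ± 0.23, adjusted p = 0.00324).

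Among 10 genes of NADPH supply 3 rose and 3 fell, close to the shares over all tested genes (31.2% higher and 32.4% lower). The minor isoform of 6-phosphogluconate dehydrogenase, GND2, had 282 ± 83.6 mRNA TPM at 42 °C and 1.01 ± 0.805 at 30 °C (7.22 ± 0.38, adjusted p = 1.19e-05), and the 6-phosphogluconolactonase SOL4 had 564 ± 115 and 8.14 ± 4.67 (6.70 ± 0.57, adjusted p = 6.89e-05). The transketolase TKL1 fell to 25.9 ± 14 at 42 °C, against 172 ± 33.2 at 30 °C (−2.64 ± 0.44, adjusted p = 0.00162), and the acetaldehyde dehydrogenase ALD6 to 15.4 ± 10.2 against 67.5 ± 20.0 (−2.11 ± 0.47, adjusted p = 0.00631). Of 11 tested genes of other oxidant defence 7 rose and 2 fell. HSP31, which codes for a methylglyoxalase with chaperone activity, had 2071 ± 145 at 42 °C and 37.4 ± 13.2 at 30 °C (6.02 ± 0.29, adjusted p = 9.45e-06), and the NADPH oxidoreductase OYE3 had 166 ± 45.7 and 10.8 ± 2.70 (4.27 ± 0.54, adjusted p = 0.000413). YHB1, the flavohemoglobin that detoxifies nitric oxide, fell to 4.28 ± 2.0 at 42 °C, against 80.5 ± 24.7 at 30 °C (−3.92 ± 0.35, adjusted p = 7.94e-05).

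Of the 6 regulators listed, 2 passed the filter and both were higher, as were 31.2% of all tested genes. YAP1 had 55.7 ± 12.6 mRNA TPM at 42 °C and 22.5 ± 4.42 at 30 °C (1.30 ± 0.23, adjusted p = 0.00211). HAP1, a heme-responsive regulator named here after its value was seen, had a log2 difference of 0.84 ± 0.25 (adjusted p = 0.0209). SKN7, MSN2 and MSN4 were too low to be tested, with 1.37 ± 0.243, 7.0 ± 1.29 and 2.72 ± 1.48 mRNA TPM at 42 °C and 1.22 ± 0.521, 4.54 ± 0.297 and 2.38 ± 0.143 at 30 °C.

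**Figure D4:**
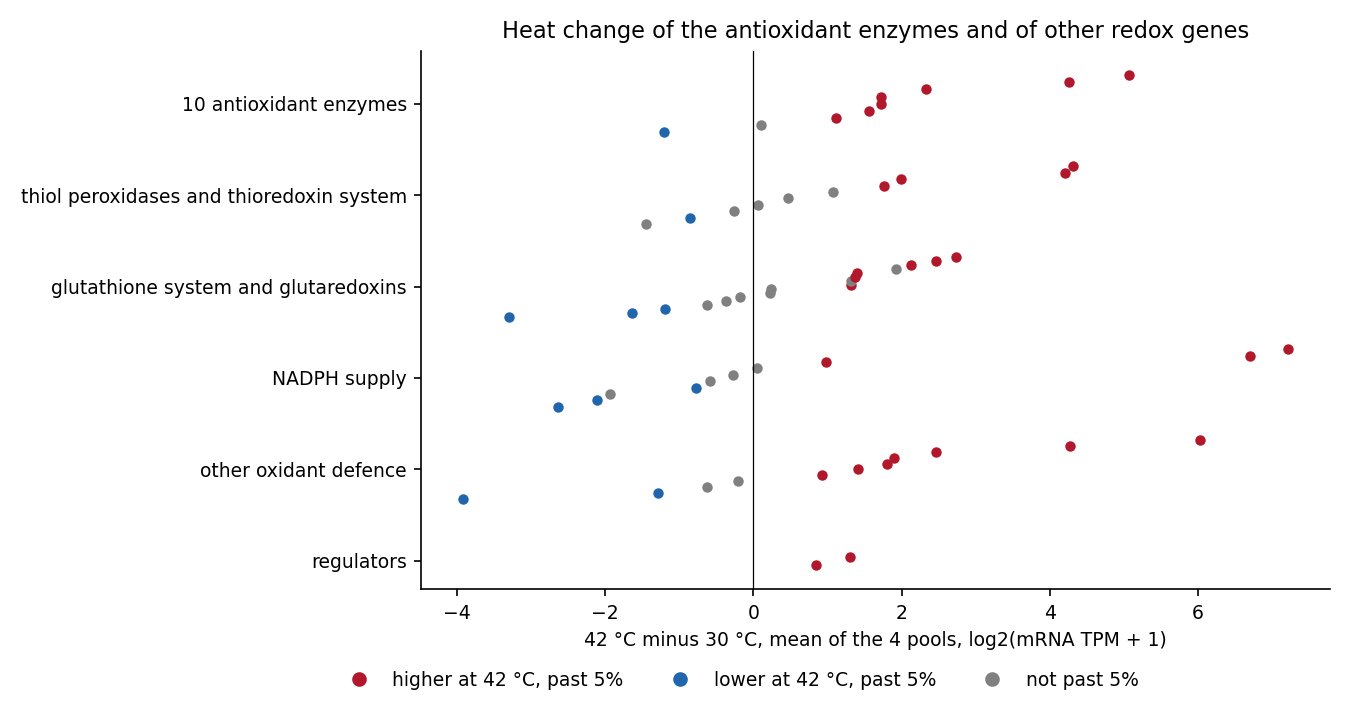
Log2 difference between 42 °C and 30 °C over the 4 pools for the 9 tested antioxidant enzymes (top row) and the 49 tested genes of 5 redox lists, 1 point per gene, coloured by whether it was higher, lower or not past 5%. Rises and falls occur side by side in each list but the regulators, and on the 25S rRNA scale the 49 genes split into 13 higher and 21 lower. Of all 3949 tested genes, 594 were higher and 2108 lower on that scale.

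The genes with the most similar level pattern were named by the highest Pearson r of log2(mRNA TPM + 1) over the 24 libraries, which share temperature, pools and gradients, so r describes these libraries only. TRX2 was closest to GRX1 (r = 0.896) and to SOD1 (0.891). CTT1 was closest to RTN2 (0.973) and TKL2 (0.971), SOD1 to TMA17 (0.951) and RNR4 (0.938), and SOD2 to UGP1 (0.974) and SBA1 (0.967). TSA1 was closest to YNL208W (0.959) and RNR4 (0.949), TSA2 to PHM7 (0.952) and HXT5 (0.946), and AHP1 to UBC4 (0.977) and FRA1 (0.974). TRR1 followed SBP1 (0.917) and TEF2 (0.907). GPX2 had no close match, with 0.752 for NKP1 and 0.738 for SUR2. Within temperatures, the values for TSA2 fell to 0.585 with PHM7 and 0.526 with HXT5, and the value stayed at 0.945 for TSA1 with YNL208W.

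How far the rises go depends on what the mRNA is set against. Scaled to 25S rRNA, the log2 difference over the 4 pools was 3.44 ± 0.40 for CTT1, 4.22 ± 0.33 for TSA2, 1.29 ± 0.30 for AHP1 and 0.67 ± 0.24 for SOD2, all past the threshold. It was 0.69 ± 0.30 for TRX2, 0.51 ± 0.29 for SOD1 and 0.08 ± 0.25 for TSA1, which did not pass, and −2.17 ± 0.44 for GPX2 and −0.93 ± 0.24 for TRR1, which were lower at 42 °C. The median of all tested genes on that scale was −0.94, so each of the 9 except GPX2 and TRR1 was above it by more than 1. On the deposited scale with a scaled pseudocount 3 were higher and 2 lower, around a median gene of −1.01. On the spike-in scale 0 passed (2 at an unadjusted p under 0.05) around a median gene of −1.0. Spike-in TPM went with the replicate number, at 22.7 to 94.3 in the 8 libraries of replicate 1, 246 to 511 in those of replicate 2 and 332 to 442 in those of replicate 3. With the number as a block 5 passed on that scale, where CTT1 (2.75 ± 0.47), TSA2 (3.73 ± 0.44) and AHP1 (1.07 ± 0.41) were higher and GPX2 (−2.23 ± 0.46) and TRR1 (−1.10 ± 0.42) lower. The summed spike-in TPM varied 21.2-fold over the 42 °C libraries and 16.5-fold over the 30 °C libraries.

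**Figure D5:**
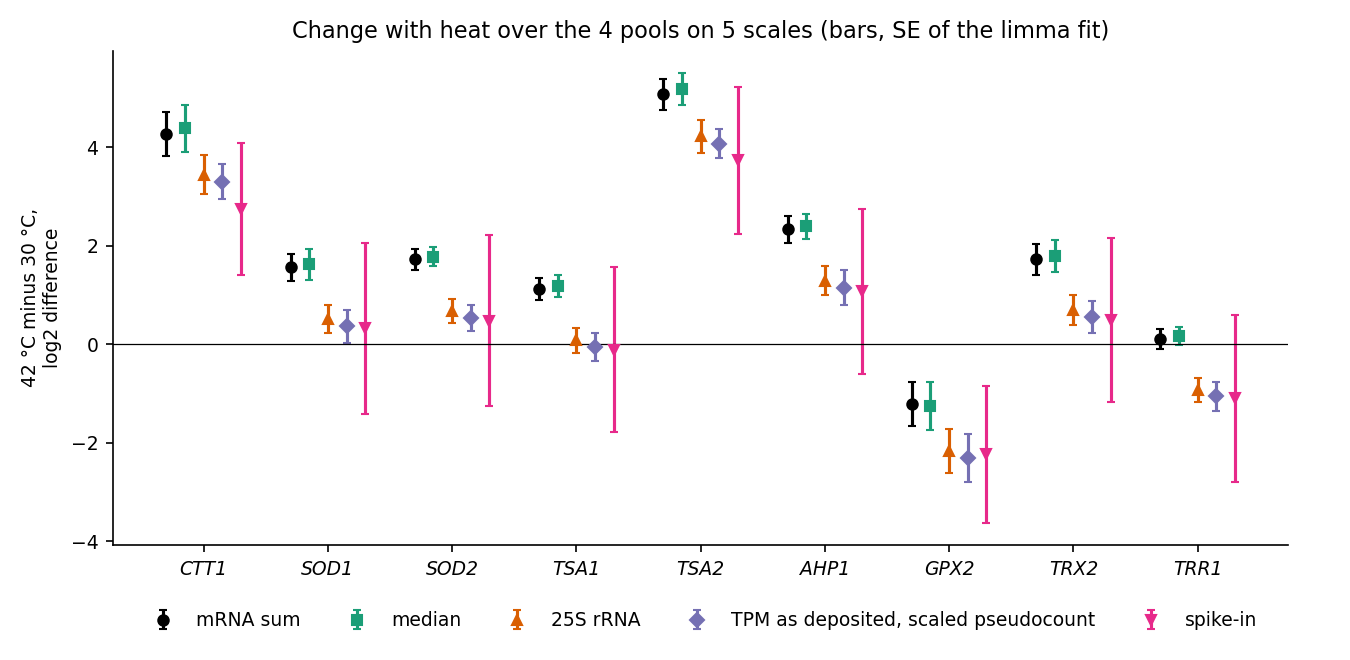
Log2 difference between 42 °C and 30 °C over the 4 pools for the 9 tested antioxidant enzymes on 5 scales (points with SE, 3 gradients per temperature). CTT1, TSA2, AHP1, SOD1, SOD2 and TRX2 are above 0 and GPX2 is below 0 on each scale, TSA1 is at 1.12 on the mRNA sum and −0.11 on the spike-in scale, and TRR1 is at 0.11 on the mRNA sum and −0.93 on the 25S rRNA scale.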

How the data were processed

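Polysome fractions of 24 libraries were measured by Stranded SMART-Seq, per the labels' protocols. The submitters' processing notes list Trim Galore 0.6.5, Salmon 1.9.0 and build R64, and the settings were not given in the sources used here. Values of 6087 entries were deposited as TPM per gene, per the deposited table's own name and its column sums. TPM keeps no read count, so the depth per library is unknown and no counting interval is given. All 6082 gene IDs matched the reference table, 3 emptied lines were skipped and 0 value columns had no sample.

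TPM was rescaled to a sum of 1000000 over the 5959 mRNAs of a library. Genes that reached 10 mRNA TPM in 3 or more libraries were fitted as log2(mRNA TPM + 1) in limma 3.58.1 (R 4.3.3) with a mean-variance trend, 2-sided, with Benjamini-Hochberg adjustment over all 3949 genes at 5%. A log2 difference on this scale understates the change of low genes. Heat over the 4 pools was fitted on gradient means, and pool contrasts on 8 group means of all 24 libraries. The fits were tested on simulated data. Tables and plots used Python 3.11.15, numpy 2.4.6, pandas 2.3.3 and matplotlib 3.10.9.

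The 10 genes and the redox lists were chosen with earlier results of these data known. All 10 are named. In each list TRX1, TRR2, PRX1, CCS1, YAP1, SKN7, MSN2 and MSN4 are always named, with up to 2 rises and 2 falls of largest size past 5%, a mean of 20 mRNA TPM or more and no overlap of gradient means. HAP1 is named outside this rule.

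Replicate numbers were checked as pairs by correlating deviations from group means. Within each pool the same number at both temperatures gave r of 0.035 to 0.099, and different numbers gave at most 0.021. The same number thus correlated weakly but above different numbers. Heat within a pool was fitted unpaired, and the fit with the number as a block is an alternative. Gradient means gave 0.152, 0.142 and 0.191, and at most −0.007 for different numbers, so the number is used there as a block beside the unblocked fit. Correlation between pools of the same gradient was not tested. The check therefore cannot decide whether contrasts between pools and the interaction may leave out the gradient. Their reported fits leave it out, and counts with the gradient as a block are given as an alternative. Alternatives were other pseudocounts (0.1 and 5), other filters (none, or 50 mRNA TPM), the deposited TPM itself, median, quantile, 25S rRNA and spike-in scaling, no trend, the replicate block, single pools, pool 3 in place of pool 4 and leaving out each replicate at 1 temperature. For contrasts between pools and for the interaction, the block was the gradient in place of the number. TPM as deposited with a pseudocount scaled to the mean mRNA sum, and leaving out a replicate number at both temperatures, were added after the data were seen. On TPM as deposited the unscaled pseudocount of 1 is large against most mRNAs and draws differences towards 0. For heat in pool 1 the median gene was at −0.29 there, and at −1.96 with the scaled pseudocount. A planned search of promoter motifs and the printing of sequences were not done, because no sequence was used here.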

Additional observations from a re-analysis of the deposited data

Results flagged for a closer look

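For 5 of the 9 tested antioxidant enzymes the effect of heat differed between pool 4 and pool 1 by a direct test of that difference (limma interaction contrast, Benjamini-Hochberg adjusted over 3949 genes). GPX2 had a heat difference of −2.89 in pool 4 and 1.76 in pool 1, an interaction of −4.65 on the log2 scale (adjusted p = 0.00551). TSA1 had 0.27 in pool 4 and 1.83 in pool 1, an interaction of −1.56 (adjusted p = 0.00456). AHP1 had 1.63 and 2.95 (−1.31, adjusted p = 0.0238), SOD2 0.90 and 2.16 (−1.25, adjusted p = 0.0074) and TRR1 −0.41 and 0.44 (−0.85, adjusted p = 0.0329), in each case with pool 4 first. Of all tested genes 48.2% had an interaction called in this direction, and the median gene was at −1.56, so relative to it GPX2 stood at −3.10 and TSA1 at −0.01, and the other 3 lay above it. On median, quantile, 25S rRNA and spike-in scaling 0 of the 9 were called, and SOD2, TSA1, AHP1 and TRR1 had the opposite sign. On median scaling and on quantile normalization GPX2 was still at −3.02 and −2.88 and did not pass (adjusted p = 0.426 and 0.441). GPX2 was at 0 in 3 libraries of pools 3 and 4 at 42 °C, and the part of low detection there was not tested.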

How the results depend on the processing

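Of 1639 values recomputed under an alternative, 1313 kept their direction and side of the threshold, 167 were no longer past it, 34 newly passed it and 125 changed sign. Among these 125, the reported or the alternative value was past the threshold for 76, and neither was for 49. Pseudocounts, filters, the trend, the replicate block and leaving out replicates changed no sign of a called value. TPM keeps no depth, so no floor can be given for the libraries at 0. Counts of the 9 genes past the threshold on the spike-in scale were 0 for heat over the 4 pools (8 on the mRNA scale), 0 in pool 1 (7), 1 in pool 2 (7), 1 in pool 3 (8), 1 in pool 4 (7), 0 for pool 4 against pool 1 at 42 °C (5) and at 30 °C (6) and 0 for the interaction (5), with 3 of 49 other redox genes (31). With a replicate block on that scale they were 5, 2, 4 and 4 for heat over the pools and in pools 1, 2 and 3. With the gradient as a block there were 8 for pool 4 against pool 1 at 42 °C. On TPM as deposited they were 4 in pool 1, 8 for pool 4 against pool 1 at 42 °C and 8 for the interaction. With a scaled pseudocount they were 5 over the pools, 4 in pool 2, 8 at 42 °C and 8 for the interaction. Of all 3949 tested genes, 2278 were higher in pool 4 than in pool 1 at 42 °C on TPM as deposited. The number was 2866 with a scaled pseudocount and 2471 on the spike-in scale with the gradient as a block. The 25S rRNA scale gave 3 in pool 1, 4 higher and 2 lower over the pools, and 0 for the interaction. Median scaling and quantile normalization gave 0 for the interaction, and pool 3 in place of pool 4 gave 1.

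Leaving out a replicate, at 1 or both temperatures, gave 7 to 8 genes over the pools, 7 to 8 in pool 1, 7 in pool 2, 5 to 8 in pool 3, 5 to 7 in pool 4, 0 to 5 for pool 4 against pool 1 at 42 °C, 5 to 7 at 30 °C, 1 to 5 for the interaction and 25 to 32 of 49 other redox genes. The replicate block gave 7 in place of 8 over the pools, where GPX2 lost its call (adjusted p = 0.0763). For heat in pools 1 to 4 it gave 7, 7, 8 and 7. With the gradient as a block there were 6 for pool 4 against pool 1 at 42 °C, 6 at 30 °C and 6 for the interaction. For all genes the gradient block called 147 in place of 67 higher in pool 4 against pool 1 at 42 °C.

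The 49 sign changes with neither value past the threshold were in TRR1 (17), CTT1 (8), GPX2 (8), TSA2 (7), TRX2 (5) and SOD1 (4). They include TRR1 over the pools, at −0.01 without replicate 3 and −1.10 on the spike-in scale, and GPX2 in pool 1, as low as −1.11. The values that changed sign with either value past the threshold follow by scale. Interaction: 25S rRNA gave 0.91 for SOD2, 0.58 for TSA1, 0.83 for AHP1 and 1.29 for TRR1, median scaling 0.58, 0.26, 0.51 and 0.98 in the same order, quantile normalization 0.19, 0.26, 0.62 and 0.87, and the spike-in scale, with or without the block, 1.50, 1.16, 1.45 and 1.84. With the block CTT1 was at 2.09 and SOD1 at 2.08 there. TPM as deposited gave 1.13 for CTT1, 2.43 for SOD1, 1.78 for SOD2, 1.00 for TSA1, 1.57 for AHP1, 1.40 for TRX2 and 1.18 for TRR1, and with a scaled pseudocount 2.85, 2.70, 2.13, 1.77, 2.03, 2.26 and 2.47.

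Heat in pool 1: 25S rRNA gave −0.27 for SOD1, −0.03 for SOD2, −0.34 for TSA1 and −1.73 for TRR1. TPM as deposited gave −1.09 for SOD1, −0.80 for SOD2, −0.65 for TSA1, −0.05 for AHP1, −0.29 for TRX2 and −1.44 for TRR1, and with a scaled pseudocount −1.34, −1.10, −1.38, −0.27, −0.81 and −2.75. The spike-in scale, with or without the block, gave −0.81 for SOD1, −0.57 for SOD2, −0.86 for TSA1 and −0.29 for TRX2, and with it −2.22 for TRR1. Heat elsewhere: TRR1 over the pools was at −0.93 (25S rRNA), −0.67 (deposited), −1.06 (scaled pseudocount) and −1.10 (spike-in with the block). TRR1 was at −1.10 (25S rRNA) and −0.57 (deposited) in pool 2, −1.08 (spike-in with the block) in pool 3, and 0.69 (median) and 0.62 (quantile) in pool 4. TSA1 was at −0.06 (scaled pseudocount) and −0.11 (spike-in, with or without the block) over the pools and −0.24 in pool 3 (spike-in, with or without the block). GPX2 in pool 4 against pool 1 at 42 °C was at 0.04 on TPM as deposited, where a pseudocount of 1 is large against its level. The cause of these changes was not tested.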

Other observations

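The mRNA shares of gene groups moved unequally. The dismutases held 0.286 ± 0.0182% of the mRNA at 42 °C and 0.105 ± 0.0142% at 30 °C (mean ± SD of gradient means, n = 3 each), and the catalases 0.00544 ± 0.00308% and 0.000227 ± 0.000119%. TRX2 and TRR1 together held 0.0473 ± 0.00534% at 42 °C and 0.0319 ± 0.00300% at 30 °C. These shares are descriptions and were not tested as groups.

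HIS3, which carries a partial deletion in BY4743, had 66.4 to 188 mRNA TPM in the 8 libraries of replicate 1, 61.3 to 146 in those of replicate 2 and 0 to 77.2 in those of replicate 3. LEU2 and HIS3 therefore had their lowest medians in replicate 3, at 0 and 27.6 mRNA TPM, and their highest in replicate 1, at 48.6 and 124. Of the mRNAs used as a check that yeast RNA was present, ACT1 was at 176 mRNA TPM at 42 °C and 233 at 30 °C, and TDH3 at 9507 and 2495.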
